A study of Rattus norvegicus with 30 samples.

Results

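The genes described here are 45 genes of DNA replication and mitosis in primary rat hepatocytes treated with sodium valproate, 23 of replication and 22 of mitosis. They were chosen by gene symbol, with cyclins and kinase inhibitors left out, and each was read from the array features (probesets) annotated with its symbol alone. Such a probeset was present for 40 of the 45 genes, 20 of replication and 20 of mitosis, out of 14217 genes in the whole data set. Those 40 genes had 55 probesets, and a gene with several was read from the brightest one on average. Cdc6, Gins2, Ndc80 and Tpx2 had no probeset of their own symbol alone in the platform table used, and Rrm2 shared its probesets with Rrm2l1. A filter on mean signal was passed by 33 genes, 20 of replication and 13 of mitosis. The 7 genes below it, all of mitosis, were Mki67, Cdk1, Plk1, Bub1b, Ttk, Kif20a and Kif2c, and their values are given from a fit with no filter. Cdt1 passed the filter only because of its level in the 10 mM cultures.

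Before a cell divides, the MCM helicase is loaded onto origins with the help of Cdt1 and Cdc6, is activated by Cdc45 and the GINS complex, and unwinds DNA for the polymerases. PCNA clamps the polymerases to the template, the RFC complex loads that clamp, and Fen1 and Lig1 finish the lagging strand. In mitosis Cdk1, Plk1 and the Aurora kinases drive chromosome condensation and spindle assembly, the Ndc80 complex ties kinetochores to microtubules, and Ect2, Racgap1 and Prc1 direct the cleavage of the cell. Adult hepatocytes are mostly quiescent and take up these programmes when the liver regenerates. Valproate, a fatty acid drug given for epilepsy, is also known to inhibit histone deacetylases.

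The cells were frozen hepatocytes of male Sprague Dawley rats from 1 supplier. They were kept on collagen under a Matrigel layer and received their dose on day 3. The 30 samples are 6 groups of 5 cultures, namely water (the vehicle), 0.5 mM valproate and 10 mM valproate harvested at 24 h, and the same 3 at 48 h. The labels call the cultures of a group independent wells. They give neither the number of donor animals nor the plate of each well, so p-values measure the spread between wells, and a plate holding 1 group could not be told apart from that group. Signals are linear intensities from 1 array per culture, and their number limits the precision. Changes are differences between group means of log2(signal + 16), with the standard error of limma's fit (n = 5 cultures per group). A positive value means more signal in the group named first. A change was called at a Benjamini-Hochberg adjusted p under 0.05 over the 21729 probesets tested, and "rose" and "fell" are used of called changes only.

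No marker of other liver cells that was tested rose with the 10 mM dose. The summed signal of the 8 of 9 listed Kupffer cell and macrophage markers that were measured was 11643 to 13292 with 10 mM at 24 h, against 26813 to 30715 in water. Most of this sum in water was Cd14, a receptor of monocytes and macrophages, with 4155 to 5097 with 10 mM at 24 h, against 16949 to 20748 in water (change -2.06 ± 0.15). The other 7 markers summed to 7488 to 8743 with 10 mM and 9247 to 10017 in water, and Cd68, a lysosomal protein of macrophages, changed by 0.40 ± 0.17 and was not called (adjusted p = 0.0555). None of the 5 of these that passed the filter was called higher at 10 mM at either time, nor was any of 7 stellate and fibroblast, 4 endothelial and 1 cholangiocyte markers. The endothelial marker Stab2 and the stellate marker Dcn passed the filter only through the 10 mM cultures. Stab2 changed by 0.83 at 24 h, the 1 endothelial marker of 4 above 0. Dcn changed by 0.69 at 48 h, when 4 of the 7 stellate and fibroblast markers were above 0. Of those 7, 2 fell at each time, and of the 4 endothelial markers 1 fell at 24 h and 0 at 48 h. The 1 cholangiocyte marker tested fell at both times. The 9 stellate and fibroblast markers summed to 3253 to 3812 with 10 mM at 24 h and 4224 to 4733 in water. The part of other cells in the results was not tested further. The summed signal of the 4 measured hepatocyte markers was 200041 to 252428 with 10 mM at 24 h and 236312 to 312638 in water. These sums overlapped, but 3 of the 4 markers fell at 10 mM and 24 h, with changes of -0.27 to -0.15 over the 4. At 48 h 1 of them fell, with changes of -0.17 to -0.04. With no filter 2 fell at 24 h and 0 at 48 h. Actin control probesets near the 3' and 5' ends of the transcript give a log2 ratio that grows as RNA breaks down, and it exceeded 2 in 3 arrays. These were 0.5 mM replicates 3 and 4 of the 48 h harvest, and water replicate 3 of the 24 h harvest. At 10 mM the ratio was 1.44 ± 0.07 at 24 h and 1.41 ± 0.08 at 48 h (SD, n = 5), against 1.75 ± 0.58 and 1.23 ± 0.06 in water, and at 0.5 mM it was 1.29 ± 0.09 and 1.82 ± 0.69. Pairs of arrays within a group correlated at a median of 0.96 across probesets, and none exceeded 0.967, so no array was counted as a repeat. With all 40 genes fitted and those 3 arrays left out, 29 rose and 1 fell at 10 mM and 24 h, and 25 rose and 1 fell at 48 h.

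The replication and mitosis genes differ in the short sequences of their promoters, which the choice of genes did not use. E2F factors bind a word found in many promoters of replication genes, and the CHR element, often near a CCAAT box, is known from promoters of mitosis genes. The words TTTCCCGC, TTTCGCGC, TTTGCCGC and TTTGGCGC (E2F), TTTGAA (CHR) and CCAAT were searched on both strands of RefSeq promoters of the rat build GRCr8, from 250 bases before to 50 bases after the start of each gene. A promoter was listed for 39 of the 45 genes, and the first listed start was taken for Kif2c, which has more than 1. An E2F word stood in 12 of 20 replication promoters (60.0%) and in 1 of 19 mitosis promoters (5.26%), that of Cdk1, against 2.25% of all 27457 promoters of the same length and 3.65% of the 11701 promoters of genes on the array. A CHR word stood in 1 of 20 replication promoters (5.0%), that of Mcm2, and in 13 of 19 mitosis promoters (68.4%), against 18.1% of all promoters and 12.3% of those of genes on the array. CHR and CCAAT words stood together in 0 of 20 replication and 10 of 19 mitosis promoters (52.6%), against 7.25% of all and 5.03% of those of genes on the array. These are matches of letters and were not tested, and E2F words on opposite strands that overlap count as 1 stretch in the promoters below.

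**Figure D1:**
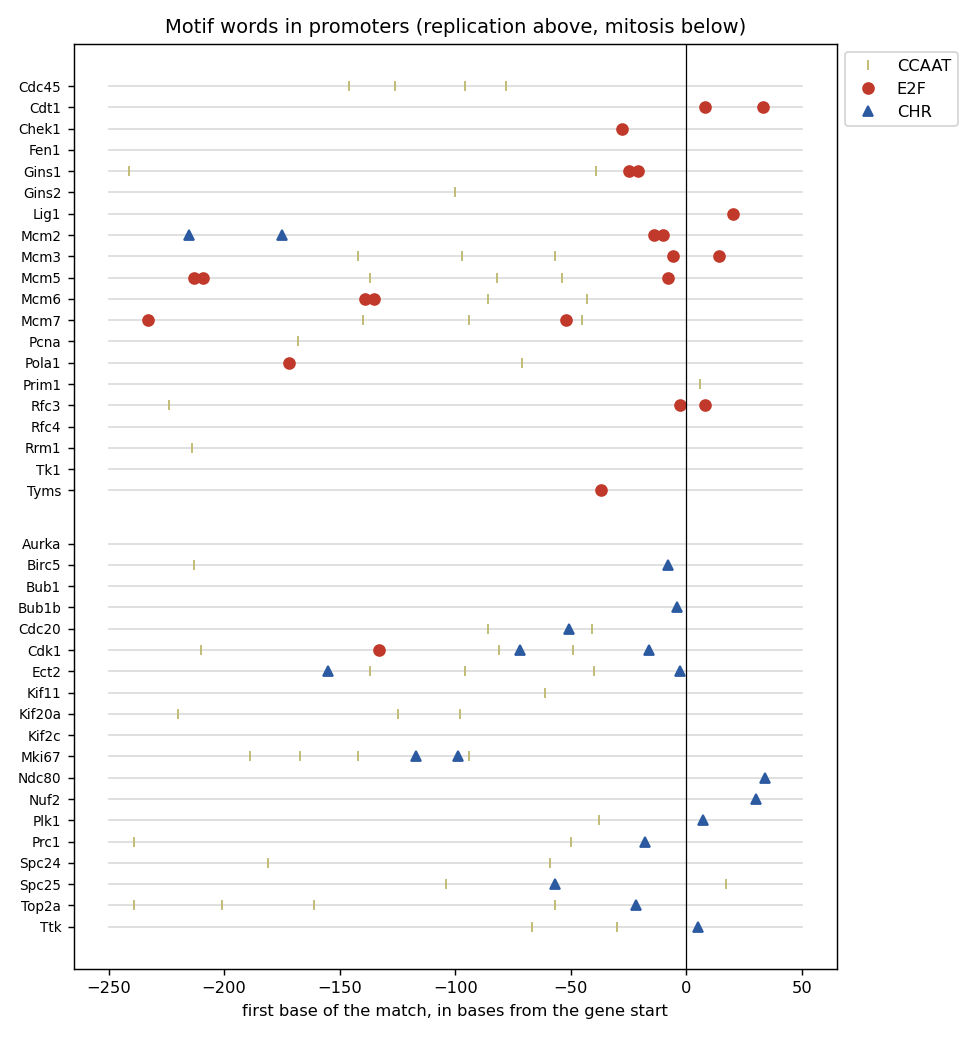
Position of each motif word in 39 promoters, in bases from the gene start on the horizontal axis, with replication genes above and mitosis genes below. Red circles are E2F words, blue triangles CHR words and ticks CCAAT words; circles lie in 12 of 20 replication rows and in the Cdk1 row, triangles in 13 of 19 mitosis rows and in the Mcm2 row.

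Of these promoters, 7 are printed 5′ to 3′ on the strand of the gene, with every E2F, CHR and CCAAT word in capitals. Mcm6 (chr13:42404303-42404602, minus strand) and Gins1 (chr3:160184670-160184969, plus strand) are replication genes with E2F words that rose at 10 mM. Mcm5 (chr19:13488563-13488862, plus strand) has E2F words and was not called, and Tk1 (chr10:103544728-103545027, minus strand) has none of the words and fell. Spc25 (chr3:74396669-74396968, minus strand) and Prc1 (chr1:143659231-143659530, plus strand) are mitosis genes with a CHR word that rose, and Cdk1 (chr20:19265043-19265342, plus strand) has both kinds.
Mcm6: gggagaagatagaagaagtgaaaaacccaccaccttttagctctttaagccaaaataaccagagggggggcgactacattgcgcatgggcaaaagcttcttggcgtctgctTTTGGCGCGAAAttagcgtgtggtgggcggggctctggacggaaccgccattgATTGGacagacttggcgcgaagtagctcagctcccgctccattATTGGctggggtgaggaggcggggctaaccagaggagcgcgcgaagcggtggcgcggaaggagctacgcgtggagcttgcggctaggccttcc
Gins1: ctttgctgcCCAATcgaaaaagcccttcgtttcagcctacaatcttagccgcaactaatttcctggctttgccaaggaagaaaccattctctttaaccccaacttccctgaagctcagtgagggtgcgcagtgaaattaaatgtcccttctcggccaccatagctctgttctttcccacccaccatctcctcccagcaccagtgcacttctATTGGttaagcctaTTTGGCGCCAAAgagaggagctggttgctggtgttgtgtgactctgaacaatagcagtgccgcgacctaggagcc
Mcm5: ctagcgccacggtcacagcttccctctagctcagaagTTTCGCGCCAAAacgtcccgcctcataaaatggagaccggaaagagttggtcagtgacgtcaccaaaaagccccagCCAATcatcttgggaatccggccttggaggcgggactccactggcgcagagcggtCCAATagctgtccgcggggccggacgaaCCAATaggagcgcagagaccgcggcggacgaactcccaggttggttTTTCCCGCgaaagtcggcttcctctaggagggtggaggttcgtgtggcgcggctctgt
Tk1: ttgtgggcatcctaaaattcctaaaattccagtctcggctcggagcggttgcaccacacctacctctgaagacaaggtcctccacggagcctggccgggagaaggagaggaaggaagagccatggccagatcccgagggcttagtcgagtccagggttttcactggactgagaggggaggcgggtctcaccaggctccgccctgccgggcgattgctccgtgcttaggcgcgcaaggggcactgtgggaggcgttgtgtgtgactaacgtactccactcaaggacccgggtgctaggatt
Spc25: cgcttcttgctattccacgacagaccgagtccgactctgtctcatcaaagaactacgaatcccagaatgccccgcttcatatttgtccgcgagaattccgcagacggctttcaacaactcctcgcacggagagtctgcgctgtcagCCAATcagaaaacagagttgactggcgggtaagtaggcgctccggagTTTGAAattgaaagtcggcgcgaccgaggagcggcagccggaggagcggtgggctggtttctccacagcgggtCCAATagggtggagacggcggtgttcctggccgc
Prc1: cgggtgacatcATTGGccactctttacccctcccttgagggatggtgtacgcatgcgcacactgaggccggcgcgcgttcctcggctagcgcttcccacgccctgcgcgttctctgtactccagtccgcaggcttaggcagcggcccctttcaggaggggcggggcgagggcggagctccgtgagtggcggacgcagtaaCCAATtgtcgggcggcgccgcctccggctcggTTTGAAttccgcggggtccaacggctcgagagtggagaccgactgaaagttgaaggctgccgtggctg
Cdk1: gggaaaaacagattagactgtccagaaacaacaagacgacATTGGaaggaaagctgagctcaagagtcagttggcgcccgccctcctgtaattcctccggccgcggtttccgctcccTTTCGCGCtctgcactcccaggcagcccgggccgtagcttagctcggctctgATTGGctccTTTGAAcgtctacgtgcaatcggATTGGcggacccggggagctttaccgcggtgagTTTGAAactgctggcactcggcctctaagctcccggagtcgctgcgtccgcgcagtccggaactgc

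Both groups of genes were mostly higher at 10 mM after 24 h. Of the 33 genes tested, 24 rose and 1 fell, with a median change of 1.16, against 31.1% higher and 25% lower among all 11604 genes tested and a median of 0.07. Of the 20 replication genes 16 rose and 1 fell (median 1.20), and of the 13 mitosis genes 8 rose and 0 fell (median 0.95). With no filter, 28 of 40 rose and 1 fell, 12 of 20 mitosis genes among those that rose, where 26.2% of 14217 genes were higher and 20.3% lower. In RNA of whole wells, more cells carrying a transcript and more of it per cell cannot be told apart.

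The mean log2 level over the genes of each group, taken minus its water mean at the same time, shows the spread between cultures. For the 20 replication genes it was 1.05 ± 0.05 with 10 mM at 24 h (SD, n = 5 cultures), with a range of 0.96 to 1.09, against -0.07 to 0.10 in water. For the 20 mitosis genes it was 1.39 ± 0.08 with 10 mM at 24 h, with a range of 1.33 to 1.51, against -0.14 to 0.18 in water. In both groups every 10 mM culture lay above every water culture. No test was run on these means, since the genes were chosen with earlier results known.

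**Figure D2:**
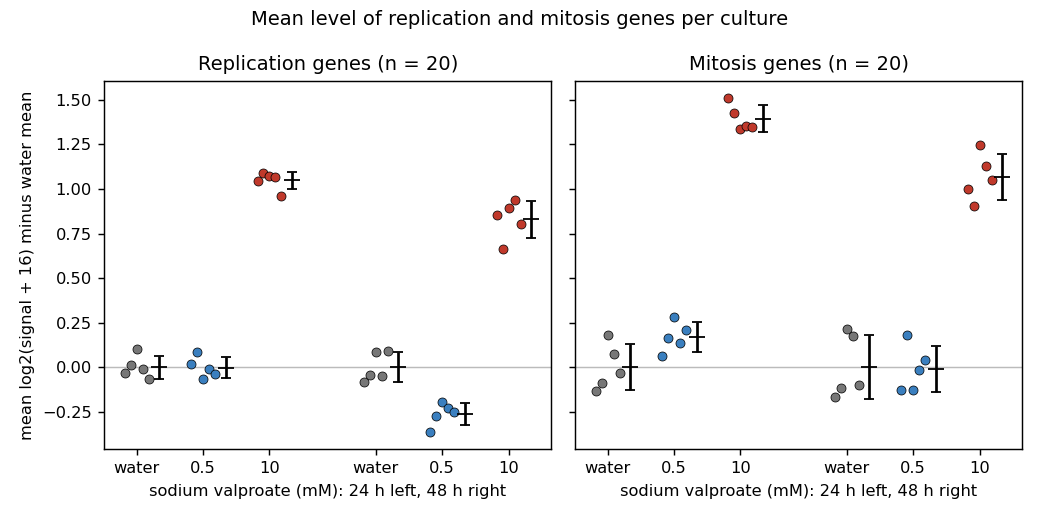
Mean log2(signal + 16) over 20 replication genes (left) and 20 mitosis genes (right) minus the water mean of the same time, 1 point per culture, with mean and SD beside the 5 points. At 10 mM the replication means average 1.05 at 24 h and 0.83 at 48 h and the mitosis means 1.39 and 1.07; the 0.5 mM replication means at 48 h lie between -0.37 and -0.20.

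**Figure D3:**
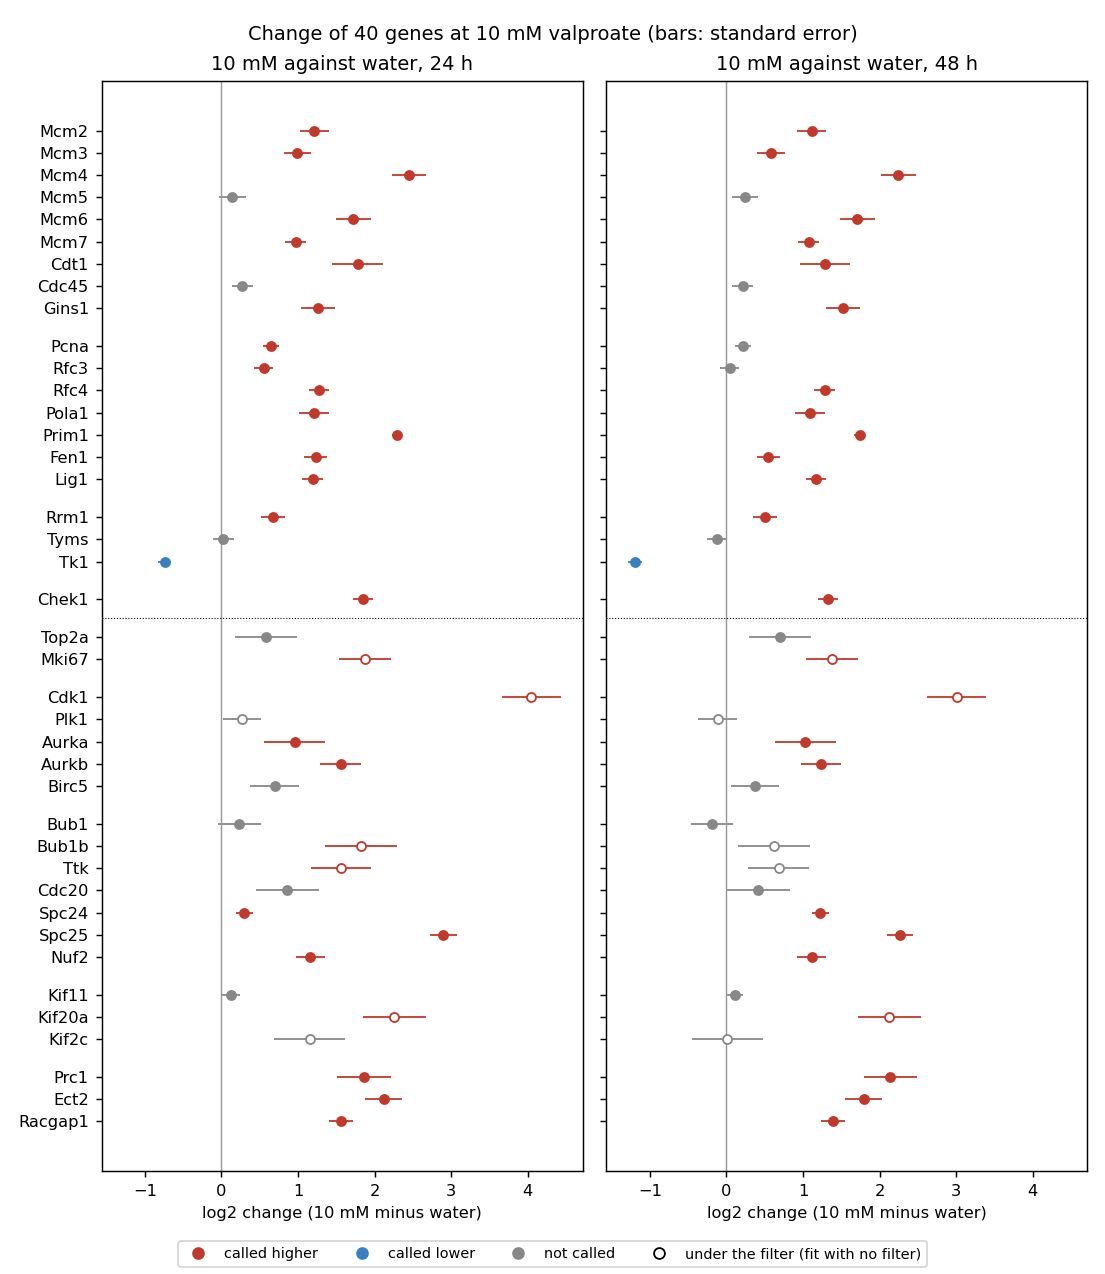
Log2 change of 40 genes at 10 mM against water (24 h left, 48 h right), with standard errors, grouped by role, replication above the dotted line and mitosis below. Red is called higher, blue called lower, grey not called, and open points are the 7 genes read from the fit with no filter; Tk1 is the 1 gene called lower.

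Of 9 helicase and licensing genes measured, 7 rose at 10 mM at 24 h, where 31.1% of all genes tested were higher. Overlap between cultures is described here gene by gene, and the share of all genes that separate is not given. Mcm4, a subunit of the MCM helicase, had signals of 1978, 1828, 1759, 1747 and 1229.9 with 10 mM at 24 h, against 265, 324, 507, 230.1 and 224 in water. All 5 treated cultures lay above all 5 water cultures, and the change was 2.45 ± 0.23 (adjusted p = 8.12e-11). Mcm6, another subunit, had signals of 855, 1122, 990.1, 858 and 990.0 with 10 mM and 318, 445, 304, 162 and 238 in water, again without overlap, a change of 1.72 ± 0.22 (adjusted p = 1.02e-07). Cdt1, which loads the helicase and is destroyed once replication starts, had signals of 641, 589.9, 561, 526 and 610.2 with 10 mM, against 146, 199, 141, 133 and 186 in water. The lowest treated culture of Cdt1 was above the highest water culture, and the change was 1.78 ± 0.33 (adjusted p = 2.99e-05). Cdt1 was tested only through its 10 mM level, so these values describe a choice that this level made. The counts of genes that rose include Cdt1, and with no filter 7 of the 9 helicase and licensing genes were higher too. Gins1, a subunit of the GINS complex, had signals of 548, 636, 506, 479 and 444 with 10 mM and 159, 191, 243, 243 and 217 in water, a change of 1.25 ± 0.22 (adjusted p = 1.67e-05) with no overlap.

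The other helicase subunits were not alike. Mcm2 changed by 1.21 ± 0.19, Mcm3 by 0.99 ± 0.18 and Mcm7 by 0.97 ± 0.14, all called. Mcm5, which forms a ring with them, changed by 0.14 ± 0.17 and was not called, with a 95% interval of -0.21 to 0.49. Its signals were 558, 487, 735, 471 and 513 with 10 mM and 591, 458, 636, 408 and 412 in water, and the groups overlapped. Cdc45, which joins the MCM ring to form the active helicase, gave different answers on its probesets. The probeset with the highest mean changed by 0.27 ± 0.14 and was not called, a second one rose by 1.13, and of 2 below the filter 1 rose by 2.01 and the other changed by -0.04, not called, in the fit with no filter.

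All 7 polymerase, clamp and ligase genes rose at 10 mM at 24 h, where 31.1% of all genes tested were higher. Prim1, the catalytic subunit of the primase that starts each new DNA strand, had signals of 10179.7, 10931, 11091, 11607 and 10882 with 10 mM at 24 h, against 2179, 2091, 2183, 2452 and 2234 in water. No culture of 1 group came near the other, and its change of 2.29 ± 0.07 had the smallest adjusted p of the genes described (3.86e-22). Pola1, the polymerase that extends the primer, changed by 1.20 ± 0.20. The flap nuclease Fen1 changed by 1.23 ± 0.15, DNA ligase Lig1 by 1.19 ± 0.13, and the clamp loader subunits Rfc4 and Rfc3 by 1.27 ± 0.14 and 0.55 ± 0.12. Pcna, the clamp itself, had signals of 10778, 11828, 11709, 11766 and 10113 with 10 mM and 7538, 7334, 5493, 8257 and 7467 in water, which did not overlap, a change of 0.65 ± 0.10 (adjusted p = 3.72e-06). Fen1 overlaps Tmem258 and Lig1 overlaps Zswim9 in the rat annotation, and whether their probesets read only 1 gene was not tested.

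The checkpoint kinase Chek1, which holds back mitosis while replication is under stress, had signals of 1255, 1298, 1314, 1494 and 1399.6 with 10 mM at 24 h, against 353, 355, 296, 419.9 and 414 in water. All treated cultures were above all water cultures, a change of 1.84 ± 0.13 (adjusted p = 2.81e-13).

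The genes of nucleotide supply did not move together. Rrm1, the large subunit of ribonucleotide reductase, rose by 0.67 ± 0.15, and Tyms, which makes thymidylate anew, changed by 0.02 ± 0.13 and was not called. Tk1, the thymidine kinase of the salvage route, had signals of 1167, 991, 1070.2, 1152 and 1067 with 10 mM at 24 h, against 1885, 1647, 1603, 2065 and 2004 in water. Every treated culture was below every water culture, and Tk1 changed by -0.74 ± 0.09 (adjusted p = 2.51e-08), the 1 fall among the genes tested. A second Tk1 probeset changed by -1.11 and was called lower, and another changed by -0.20 and was not called. Rrm2, the small subunit of ribonucleotide reductase, was read by 2 probesets that also match Rrm2l1, so its values are uncertain. In the fit with no filter, 1 of these rose by 1.81 at 10 mM at 24 h (adjusted p = 0.000576) and the other changed by 0.77 (adjusted p = 0.298).

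Among mitosis genes, the kinetochore and cytokinesis genes held the largest changes that passed the filter. Spc25, a subunit of the Ndc80 complex, had signals of 1943, 2126, 2022, 2226 and 1843 with 10 mM at 24 h, against 216, 367, 208, 270.0 and 256 in water. The groups were far apart, and the change of 2.90 ± 0.17 (adjusted p = 4.8e-15) was the largest of the 33 genes tested. Spc25 overlaps Nostrin in the annotation, and which gene its probeset reads was not tested. Nuf2, another subunit of that complex, rose by 1.16 ± 0.19. Spc24, the partner of Spc25, rose by 0.30 ± 0.11 (adjusted p = 0.0257), a call lost with quantile normalization (0.16, adjusted p = 0.259), with only the compared groups fitted (adjusted p = 0.055), and without replicate 1 or 2 of 10 mM or replicate 2 of water (adjusted p = 0.117, 0.0556 and 0.0863).

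All 3 cytokinesis genes rose at 10 mM at 24 h, where 31.1% of all genes tested were higher. Ect2, which activates RhoA at the division plane, had signals of 897, 683, 774, 802 and 681 with 10 mM at 24 h, against 206, 137, 267, 111 and 137 in water, and changed by 2.12 ± 0.24 (adjusted p = 9.73e-09). Prc1, which bundles microtubules of the spindle midzone, had signals of 1078, 972, 1083, 1194 and 1179.7 with 10 mM and 221, 424, 322, 274 and 247 in water, a change of 1.86 ± 0.35 (adjusted p = 3.95e-05). Racgap1, a subunit of centralspindlin, had signals of 915, 717, 822, 730.3 and 748 with 10 mM and 205, 303, 238, 311 and 229 in water, a change of 1.56 ± 0.16 (adjusted p = 6.04e-10). Treated and water cultures did not overlap for Ect2, Prc1 or Racgap1, and the share of all genes that separate is not given.

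Of the mitotic kinases, Cdk1 was near the bottom of the array's range in water. Its signals were 980.0, 1202, 965, 1002 and 963 with 10 mM at 24 h, against 10.9, 33.6, 132, 24.5 and 106 in water. The change in the fit with no filter was 4.04 ± 0.38 (adjusted p = 2.65e-10), the largest of the 40 genes, and it was 4.56 with a pseudocount of 1 and 3.22 with 64. Cdk1 lies outside the rule by which values of every culture are given, and was added after its values were seen. Aurkb, the kinase of the chromosomal passenger complex, rose by 1.56 ± 0.27. Aurka, the kinase of the spindle poles, changed by 0.95 ± 0.40 with an adjusted p of 0.0471, and that call was lost with no filter (adjusted p = 0.0646), with the 3 arrays left out (0.80, adjusted p = 0.127) and in all in 22 of 42 alternatives. Plk1 changed by 0.27 ± 0.25 with no filter, its signals ran from 25 to 79.8 with 10 mM and from 21.2 to 56.9 in water, and it was not called.

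Mki67, whose protein coats mitotic chromosomes and is used as a marker of cycling cells, had signals of 234, 339, 176, 197 and 258 with 10 mM at 24 h, against 46.1, 13.4, 98.6, 76.2 and 61.5 in water. Its groups did not overlap, and it changed by 1.88 ± 0.34 in the fit with no filter (adjusted p = 2.99e-05). Top2a, which untangles sister chromosomes, had signals of 188, 106, 216, 288 and 229 with 10 mM and 134, 50.9, 227, 121 and 154 in water. These overlapped, and the change of 0.58 ± 0.40 was not called (adjusted p = 0.247), while the mean of its probesets was called higher (0.77, adjusted p = 0.0372). With no filter, Kif20a, a kinesin of cytokinesis, rose by 2.26 ± 0.41, the checkpoint kinases Bub1b and Ttk rose by 1.82 ± 0.47 and 1.56 ± 0.40, and Kif2c, a microtubule depolymerase, changed by 1.15 ± 0.46 (adjusted p = 0.0524). Kif2c was called with the 3 arrays left out (1.38, adjusted p = 0.0162). Not called among those that passed the filter were Birc5 (0.69 ± 0.32), the passenger protein survivin, Bub1 (0.23 ± 0.28) and Cdc20 (0.86 ± 0.41) of the spindle checkpoint, and the kinesin Kif11 (0.12 ± 0.11). In the rat annotation Kif20a overlaps Cdc23, Aurka overlaps Fam210b, Kif11 overlaps Ide and Plk1 overlaps Ern2. Which gene their probesets read was not tested.

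**Figure D4:**
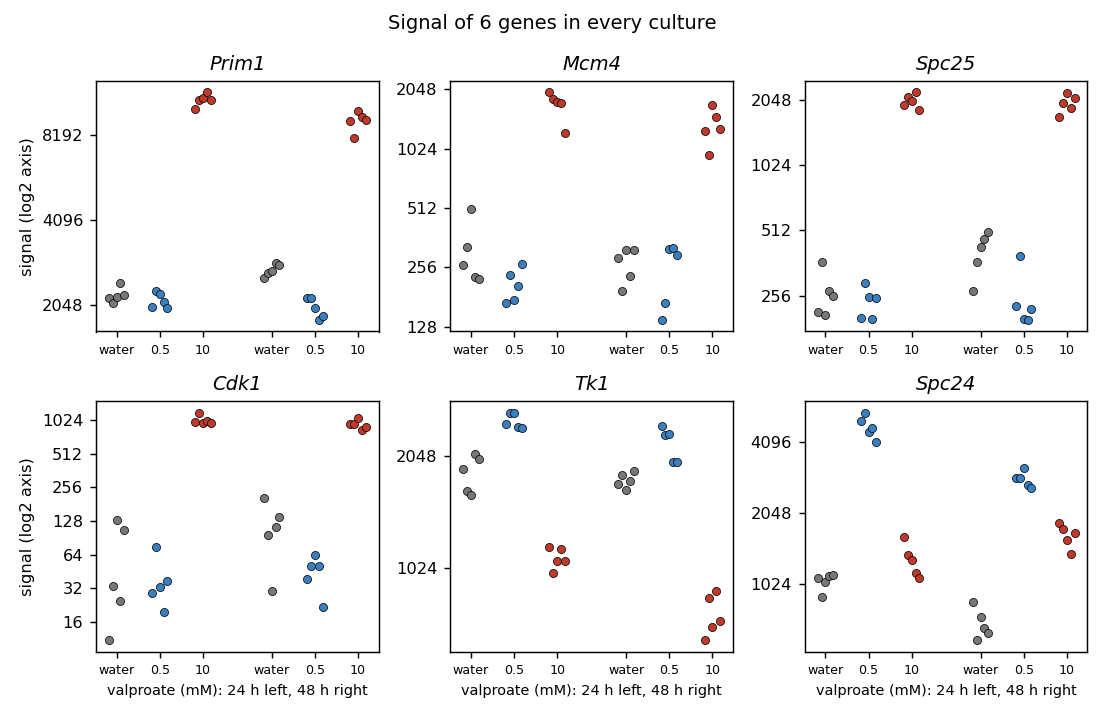
Signal of 6 genes in every culture on a log2 axis, water, 0.5 mM and 10 mM from left to right, 24 h before 48 h in each panel. Prim1, Mcm4, Spc25 and Cdk1 are high at 10 mM alone, Tk1 is lowest at 10 mM, and Spc24 is highest at 0.5 mM.

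The same direction held at 48 h for most genes. At 10 mM and 48 h, 22 of 33 rose and 1 fell, with a median of 1.09, against 27.6% higher and 22.3% lower of all genes and a median of 0.03. With no filter 24 of 40 rose and 1 fell, against 23.1% and 17.7%. Replication genes counted 14 higher and 1 lower of 20, and mitosis genes 8 higher and 0 lower of 13, or 10 of 20 with no filter. The mean over the replication genes was 0.83 ± 0.10 with 10 mM (SD, n = 5), and that over the mitosis genes 1.07 ± 0.13, both above all water cultures.

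Prim1 had signals of 9200.3, 8026, 9967, 9488 and 9284 with 10 mM at 48 h, against 2562, 2672, 2704, 2896 and 2854 in water, a change of 1.74 ± 0.07. Mcm4 had 1254, 949, 1711, 1483 and 1286 with 10 mM and 286, 194, 316, 231 and 316 in water, a change of 2.25 ± 0.23, and Mcm6 had 1232, 904, 1025, 1091 and 1007 with 10 mM and 218, 341, 298, 304 and 413 in water, a change of 1.71 ± 0.22. Prim1, Mcm4 and Mcm6 did not overlap between the groups, and the share of all genes that separate is not given at 48 h either. Gins1 had 559, 528, 649, 642 and 524 with 10 mM and 258, 141, 182, 128 and 288 in water, a change of 1.53 ± 0.22. Chek1 had 1585, 1039, 1438, 1692 and 1640.4 with 10 mM and 479, 629, 632, 573 and 561 in water, a change of 1.33 ± 0.13, and Cdt1 had 489, 286, 474, 383 and 507 with 10 mM and 113, 152, 238, 222 and 121 in water, a change of 1.29 ± 0.33. Gins1, Chek1 and Cdt1 were separated between the groups as well. Pcna had 9995, 9787, 9731, 9091 and 8478 with 10 mM and 8000.4, 8312, 7734, 8185 and 8092 in water, and its change of 0.22 ± 0.10 was not called (adjusted p = 0.0903), although the cultures did not overlap. It was called higher in 6 of the alternatives, among them quantile normalization (0.30, adjusted p = 0.0158) and the fit without the 3 arrays (adjusted p = 0.0174). Rfc3 changed by 0.04 ± 0.12 and was not called either. Tk1 had 655, 851, 709.6, 885 and 737 with 10 mM and 1723, 1816, 1661, 1754 and 1857 in water, a change of -1.19 ± 0.09 (adjusted p = 1.91e-12), with every treated culture lower.

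In the mitosis genes at 48 h, Spc25 had signals of 1716, 1995, 2214, 1880.2 and 2099 with 10 mM, against 268, 364, 428, 469 and 502 in water, a change of 2.27 ± 0.17. Prc1 had 805, 653, 1246, 1025 and 806 with 10 mM and 91.0, 363, 224, 291 and 103 in water, a change of 2.14 ± 0.35. Ect2 had 889, 708, 931, 1126 and 900.4 with 10 mM and 318, 349, 346, 202 and 119.6 in water, a change of 1.79 ± 0.24. Spc25, Prc1 and Ect2 rose without overlap, and the share of all genes that separate is not given. So did Racgap1, with 855, 603, 883, 1026 and 784 at 10 mM and 334, 268, 347, 271 and 294 in water and a change of 1.40 ± 0.16. Cdk1 had 949, 944, 1064, 837 and 894 with 10 mM and 205, 95.6, 30.4, 114 and 140.1 in water, and changed by 3.01 ± 0.38 with no filter. Mki67 had 217, 210.5, 301, 366 and 329 with 10 mM and 59.7, 63.7, 151, 148 and 97.6 in water, a change of 1.38 ± 0.34 with no filter (adjusted p = 0.00168) and no overlap. Top2a had 184, 149.6, 366, 187 and 479.7 with 10 mM and 69.3, 198, 249, 122 and 149.7 in water, which overlapped, and its change of 0.70 ± 0.40 was not called (adjusted p = 0.171). Bub1b (0.62 ± 0.47) and Ttk (0.68 ± 0.40) were not called at 48 h on their probesets with the highest mean, while a second Ttk probeset rose by 2.23 and a second Kif2c probeset by 1.84, each with no filter. Aurka changed by 1.03 ± 0.40 (adjusted p = 0.0365), and without replicate 2 of water by 0.59 (adjusted p = 0.194). That call was lost in 10 of 42 alternatives, no filter (adjusted p = 0.0507), quantile normalization (adjusted p = 0.0538) and only the compared groups (adjusted p = 0.0577) among them.

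The effect of 10 mM at 48 h was tested against that at 24 h as an interaction, for which 1 of the 33 genes was higher and 3 were lower, where 6.63% of all genes were higher and 6.20% lower. The difference was -0.55 ± 0.10 for Prim1 (adjusted p = 0.000187), -0.68 ± 0.21 for Fen1 (adjusted p = 0.0318) and -0.45 ± 0.13 for Tk1 (adjusted p = 0.0196). Spc24 was the 1 gene with a larger change at 48 h, by 0.93 ± 0.16 (adjusted p = 0.000105). For Pcna and Rfc3, called at 24 h alone, the differences of -0.43 ± 0.15 and -0.50 ± 0.17 had adjusted p of 0.0597 and 0.0588. The count of lower genes was 6 without replicate 1 of water at 48 h.

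At 24 h the low dose gave no common direction. At 0.5 mM and 24 h, 6 of 33 genes were higher and 3 lower, with a median of 0.07, where 12.7% of all genes were higher and 16.1% lower. The mean over the replication genes was 0.00 ± 0.06 at 0.5 mM and 24 h (SD, n = 5) and that over the mitosis genes 0.17 ± 0.08, both overlapping water. Higher were Spc24 (2.16 ± 0.11), Ect2 (0.92 ± 0.24), Nuf2 (0.64 ± 0.19), Mcm3 (0.49 ± 0.18), Cdc45 (0.49 ± 0.14) and Tk1 (0.47 ± 0.09). Lower were Prc1 (-0.98 ± 0.35), Mcm6 (-0.88 ± 0.22) and Mcm7 (-0.63 ± 0.14), 2 of which encode subunits of the MCM ring. Mcm6 had signals of 199, 223, 138, 133 and 74.4 with 0.5 mM, against 318, 445, 304, 162 and 238 in water, and Mcm7 had 1171, 823, 886, 868 and 931 with 0.5 mM, against 1634, 1245, 1795, 1384 and 1252 in water. Mcm7 did not overlap between the groups and Mcm6 did. The calls of Mcm3 and Prc1 were lost in 12 of 43 and 13 of 42 of the alternatives run, and that of Mcm6 when only the compared groups were fitted (adjusted p = 0.0767). With ribosomal centring the calls of Cdc45 (adjusted p = 0.0779) and Nuf2 (adjusted p = 0.0564) were lost, and as the mean of its probesets Cdc45 changed by 0.28 (adjusted p = 0.218).

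At 0.5 mM and 48 h, 2 of 33 genes were higher and 5 lower, with a median of -0.16, where 11.9% of all genes were higher and 14.1% lower. Of the 20 replication genes 1 was higher and 4 lower, with a median of -0.24 and 4 changes above 0. Of the 13 mitosis genes 1 was higher and 1 lower, with a median of -0.02. The mean over the replication genes was -0.26 ± 0.06 (SD, n = 5), with a range of -0.37 to -0.20, below the -0.09 to 0.09 of the water cultures, and that over the mitosis genes was -0.01 ± 0.13. With arrays centred on ribosomal protein genes, the median change of all probesets in this comparison was higher by 0.15. The means here are given without that centring. Lower were Gins1 (-0.76 ± 0.22), Spc25 (-0.69 ± 0.17), Pcna (-0.61 ± 0.10), Tyms (-0.54 ± 0.13) and Prim1 (-0.45 ± 0.07). The lowest change, -0.89 for Cdt1, was not called, but it was called in 13 of 42 alternatives. Prim1 had signals of 2180.2, 2170.0, 2006, 1815 and 1879 with 0.5 mM, against 2562, 2672, 2704, 2896 and 2854 in water, and Pcna had 6969, 6164, 4176, 4671 and 4835 with 0.5 mM, against 8000.4, 8312, 7734, 8185 and 8092 in water. Both were lower in every treated culture. For Spc25 the change was -0.52 without the 3 arrays of high actin ratio, 2 of them in this group (adjusted p = 0.06), and that of Tyms was -0.42 without them and with no filter (adjusted p = 0.0629). The call of Gins1 was lost with ribosomal centring (adjusted p = 0.0511), with only the compared groups (adjusted p = 0.162) and without replicate 5 of water (adjusted p = 0.0551). Spc24 (2.02 ± 0.11) and Tk1 (0.32 ± 0.09) were higher at this time too, and Tk1 was not called as the mean of its probesets (0.30, adjusted p = 0.0817).

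The doses themselves differed. At 24 h, 25 of 33 genes were higher and 2 lower at 10 mM than at 0.5 mM, against 32.9% and 26.4% of all genes. At 48 h, 23 were higher and 2 lower, against 30.0% and 23.8%. Cdk1 had signals of 980.0, 1202, 965, 1002 and 963 with 10 mM at 24 h and 28.8, 74.2, 33.1, 19.5 and 37.2 with 0.5 mM, a difference of 4.32 ± 0.38 with no filter. Tk1 (-1.21 ± 0.09 at 24 h and -1.51 ± 0.09 at 48 h) and Spc24 were the 2 genes lower at the higher dose at both times. The comparisons of each dose with water share the same water cultures.

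Spc24 and Tk1, higher at 0.5 mM than in water and lower at 10 mM than at 0.5 mM, did not follow the order of the doses. Other genes did not follow it either. Mcm6, Mcm7 and Prc1 at 24 h were lower at 0.5 mM and higher at 10 mM than in water. So were Gins1, Spc25 and Prim1 at 48 h. Spc24 had signals of 1084, 898, 1044, 1111 and 1116 in water at 24 h, 5049.9, 5494, 4520.2, 4699 and 4109 with 0.5 mM and 1628, 1361, 1300.4, 1136 and 1088 with 10 mM. All 0.5 mM cultures were above all others, while 10 mM and water overlapped. At 48 h Spc24 had 856, 589.8, 740.4, 662 and 631 in water, 2894, 2899, 3188, 2698 and 2609 with 0.5 mM and 1860.2, 1746, 1574, 1367 and 1679.9 with 10 mM, and no 2 groups overlapped. The change at 10 mM against 0.5 mM was -1.87 ± 0.11 at 24 h and -0.79 ± 0.11 at 48 h (adjusted p = 2.71e-15 and 3.26e-07). Spc24 has 1 probeset, and its values in every culture were added after they were seen. Tk1 had 1885, 1647, 1603, 2065 and 2004 in water at 24 h, 2486, 2665, 2672, 2439 and 2428 with 0.5 mM and 1167, 991, 1070.2, 1152 and 1067 with 10 mM, the middle dose being highest. It changed by 0.47 ± 0.09 at 0.5 mM against water (adjusted p = 0.000281), and as the mean of its probesets by 0.14, which was not called.

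In water alone few genes changed with time. At 48 h against 24 h, 3 of 33 were higher and 1 lower, where 5.11% of all genes were higher and 4.96% lower. Chek1 (0.63 ± 0.13), Spc25 (0.59 ± 0.17) and Prim1 (0.30 ± 0.07) were higher at 48 h, and Spc24 (-0.59 ± 0.11) was lower.

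The promoter words were set beside the changes as a description, with the 7 genes below the filter read from the fit with no filter. The 12 replication genes with an E2F word had a median change of 1.20 at 10 mM and 24 h, with a range of 0.02 to 1.84, and the 7 without had a median of 0.67, with a range of -0.74 to 2.29. The 12 mitosis genes with a CHR word had a median of 1.69, with a range of 0.27 to 4.04, and the 6 without had a median of 0.62, with a range of 0.12 to 2.26. The ranges overlapped in both groups. Prim1, with the largest rise among replication genes that have a promoter listed, holds no E2F word in this window, and Mcm5 and Tyms, which hold one, were not called.

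Other genes of the same processes were counted beside all genes tested, of which 31.1% were higher and 25% lower at 10 mM at 24 h, and 27.6% and 22.3% at 48 h. Of 40 other replication genes tested, 23 rose and 4 fell at 24 h (median 0.64), and 20 rose and 3 fell at 48 h (median 0.40). The 5 with the largest rises at 24 h were Gmnn (2.91 ± 0.39), which encodes geminin, the inhibitor of Cdt1, Uhrf1 (2.36 ± 0.24), which guides methylation of new DNA, Rpa2 (1.92 ± 0.12) of the single-strand binding complex, Timeless (1.76 ± 0.40) of the fork protection complex, and Gins3 (1.45 ± 0.27). The 4 that fell were Clspn (-1.08 ± 0.23), the adaptor that lets Chek1 be activated, the polymerase subunits Pole4 (-0.81 ± 0.12) and Pold4 (-0.15 ± 0.06), and Mcm10 (-0.49 ± 0.15), which helps to activate the helicase. Of 45 other mitosis genes tested, 28 rose and 0 fell at 24 h (median 0.64), and 20 rose and 1 fell at 48 h (median 0.25). Of these 45, Ska3, Pttg1, Cdca8, Dsn1, Kif18a and Kif15 passed the filter only through their level in the 10 mM cultures. Without these 6, 23 of 39 rose and 0 fell at 24 h, and 16 rose and 1 fell at 48 h. With no filter 32 of 59 rose and 0 fell at 24 h, and 22 rose and 1 fell at 48 h, beside the 26.2% and 20.3%, then 23.1% and 17.7%, of all genes given above. The kinetochore gene Cenpk (3.17 ± 0.15) and the centriole kinase Plk4 (2.56 ± 0.20) rose at 24 h. Among the 6 genes that passed through the 10 mM cultures, Ska3 (3.01 ± 0.44) of the kinetochore, securin Pttg1 (2.54 ± 0.39) and the passenger protein Cdca8 (2.45 ± 0.53) rose too, and their values describe a choice that the 10 mM level made. At 48 h Cdca8 changed by 0.03 ± 0.53 and was not called, and Ncapd3, a condensin subunit, was the 1 that fell (-0.53 ± 0.11).

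The regulators of these genes did not move as 1 group. Of 17 tested, 8 rose and 2 fell at 10 mM and 24 h (median 0.36), and 7 rose and 2 fell at 48 h, where all genes had 31.1% higher and 25% lower at 24 h and 27.6% and 22.3% at 48 h. E2f5, an E2F factor known as a repressor, rose by 2.61 ± 0.12, its dimer partner Tfdp2 by 1.68 ± 0.22, the retinoblastoma gene Rb1 by 1.37 ± 0.20, and Lin52 and Lin37, subunits of the MuvB core of the DREAM complex, by 1.39 ± 0.11 and 0.84 ± 0.10. Myc, a driver of cell growth, changed by -1.36 ± 0.09 and the pocket protein Rbl2 by -0.47 ± 0.10, both called lower. E2f1, an activating E2F factor, changed by 0.64 ± 0.39 at 24 h (adjusted p = 0.191) and rose by 1.02 ± 0.39 at 48 h. Its mean log2 level at 24 h was 8.96 with 10 mM, 8.34 with 0.5 mM and 8.33 in water. At 48 h it was 8.61 with 10 mM, 8.70 with 0.5 mM and 7.59 in water, so the 48 h change was not particular to 10 mM. Mybl2, which joins MuvB in S phase, changed by 0.34 ± 0.34 and was not called, and Foxm1, a factor of late cell cycle genes, lay below the filter. The mean log2 level of Foxm1 was 5.63 with 10 mM and 6.37 in water at 24 h. At 48 h it was 5.38 with 10 mM and 6.28 in water.

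Of 16 cyclins, their kinases and inhibitors tested, which were left out of the 45 genes, 11 rose and 1 fell at 10 mM and 24 h (median 1.09), beside 31.1% higher and 25% lower of all genes. The cyclins that start replication, Ccne2 (3.05 ± 0.14) and Ccne1 (2.27 ± 0.37), had rises of over 2 on the log2 scale. Ccnb1, a partner of Cdk1 in mitosis, rose by 0.97 ± 0.28, and Ccna2 lay below the filter. Ccnb2, another B cyclin, was not called at 24 h, with mean log2 levels of 8.19 with 10 mM and 8.33 in water. At 48 h the levels of Ccnb2 were 8.32 with 10 mM and 8.65 in water. The mean log2 level of Ccna2 was 6.54 with 10 mM and 6.30 in water at 24 h. At 48 h it was 6.56 with 10 mM and 6.84 in water. Cdkn1a, which encodes a kinase inhibitor of the same family as Cdkn1b, changed by -0.32 ± 0.16 and was not called, while Cdkn1c, which encodes another inhibitor of the same family, rose by 2.53 ± 0.25. Cdk2, the kinase partner of the E cyclins, rose by 1.73 ± 0.15, and Cdk4, a kinase of the D cyclins, was the 1 that fell (-0.28 ± 0.10). The lists of these other genes were written with earlier results of these data known.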

How the data were processed

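RNA of 30 cultures was measured on 1 Affymetrix rat array each. The deposited values are linear signal intensities, scaled by the authors with MAS5 per the submitters' processing notes (version not given in the sources used here), and such scaling assumes a like total level in every array. The 31099 probesets (57 controls left out) were named from the platform table, 20826 by 1 symbol, 436 by several and 9780 by none. Values were taken as log2(signal + 16), and the test took every probeset whose mean reached the 30th percentile (21729 probesets, 11604 genes). All 6 groups were fitted together in limma 3.58.1 (R 4.3.3) with lmFit and eBayes with a trend, leaving 24 residual degrees of freedom, with the Benjamini-Hochberg adjustment made over all of these probesets. The fit was tested on simulated data. Alternatives varied the pseudocount, scaling, filter, fit, probeset choice and arrays, and those with no filter combined with another choice, and the counts and sums that leave genes out of a list, were added after seeing the data. Values of every culture are given for up to 4 rises and 3 falls per group of genes and time at the higher dose. They are also given for Pcna, Mki67 and Top2a and, outside this rule, for Cdk1, Spc24, Mcm5 and Mcm7. For other lists up to 5 genes per direction are named, with a fixed set of regulators and cyclins, and Ccnb2 was added to these later. The 45 genes, the lists and the tests were chosen with earlier results of these data known. Promoters came from RefSeq tables of GRCr8 and were searched with Python 3.11.15.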

Additional observations from a re-analysis of the deposited data

Results flagged for a closer look

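In 4 of 96 groups of 5 cultures examined, 1 culture lay far from the rest by Dixon's criterion, which chance alone does in about 5% of groups. Mcm4 had a signal of 1229.9 in replicate 5 of 10 mM at 24 h, where the median of the other cultures was 1793. Cdt1 had 79.4 in replicate 4 of 0.5 mM at 24 h, against a median of 196, and 14.2 in replicate 2 of 0.5 mM at 48 h, against a median of 112. Spc25 had 391 in replicate 2 of 0.5 mM at 48 h, against a median of 211.

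The change at 10 mM differed between 48 h and 24 h, by the interaction term of the limma fit, for 4 of the 33 genes. Of these, 1 was higher and 3 were lower, where 6.63% of all genes tested were higher and 6.20% lower. The difference was -0.55 for Prim1, -0.68 for Fen1, -0.45 for Tk1 and 0.93 for Spc24.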

How the results depend on the processing

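No called result changed its direction under any alternative run. The count of the 33 genes that rose at 10 mM was 22 to 25 at 24 h and 21 to 22 at 48 h with 1 array left out at a time, and 19 to 29 and 17 to 25 under 14 other alternatives, which test between 25 and 40 genes. In all of them 1 gene fell. Calls lost at 10 mM were those of Aurka at both times and Spc24 at 24 h, and calls gained were those of Top2a and Kif2c at 24 h and Pcna at 48 h. At 0.5 mM and 24 h, 3 genes were higher with arrays centred on ribosomal protein genes, and 5 were lower with quantile normalization and 1 with only the compared groups fitted. At 0.5 mM and 48 h, 1 was higher with the mean of the probesets of each gene, and 3 were lower both with ribosomal centring and with only the compared groups. For the interaction, 1 was lower with ribosomal centring, 5 with a filter at the 50th percentile, 5 with array weights and 2 to 6 with 1 array left out. For time in water, 1 was higher with ribosomal centring. The cause was not tested. Ribosomal centring moved the median of all probesets by up to 0.19 (10 mM against 0.5 mM at 24 h), and quantile normalization by -0.11 (10 mM against water at 24 h). The titles number the arrays, and each run of 6 numbers holds 1 array of every group. A fit with these runs as a block moved no count by over 1.5 times. The labels give no other replicate numbers. Signals near the bottom of the range, such as those of Cdk1 and Plk1 in water, limit what can be measured there.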

Other observations

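At 0.5 mM and 24 h 5 of 40 other replication genes were higher and 6 lower, close to the 12.7% and 16.1% of all genes, the largest changes being Asf1b (0.88 ± 0.30), a histone chaperone, and Dnmt1 (-1.13 ± 0.31), the maintenance DNA methyltransferase. At 48 h 3 were higher and 9 lower, where 11.9% of all genes were higher and 14.1% lower, among them Rfc5 (-0.69 ± 0.20), Hells (-0.68 ± 0.13) and Rpa2 (-0.66 ± 0.12). Of 45 other mitosis genes 1 was higher and 1 lower at 24 h, and 0 were higher and 7 lower at 48 h, led by the condensin subunit Smc2 (-0.86 ± 0.11). Values are log2 changes against water with the standard error of the limma fit (n = 5 cultures per group).

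Of 17 regulators tested, 0 were higher and 6 lower at 0.5 mM at 24 h, and 2 were higher and 4 lower at 48 h, beside the same shares of all genes. E2f5, called higher at 10 mM at both times, was called lower at 0.5 mM at 24 h (-0.46 ± 0.12) and at 48 h (-1.10 ± 0.12). Myc was called lower at 0.5 mM at both times (-1.06 ± 0.09 and -0.63 ± 0.09). The cyclin Ccne1, called higher at 10 mM, was called lower at 0.5 mM at 24 h (-1.37 ± 0.37). Both doses share their water cultures.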
